A study of Schizosaccharomyces pombe with 12 samples.

Results

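The genes described here carry the fission yeast names rec, mcp, mde, meu or spo followed by a number, names given to genes of meiotic recombination, meiotic coiled-coil proteins, Mei4-dependent genes, genes upregulated in meiosis and genes of sporulation. They were taken from an expression array by the gene symbol of its platform annotation, and only probe sets assigned to exactly 1 gene were kept. The rule itself uses no measured values, but the members were chosen with earlier results of these data known. It gave 54 members, 1 probe set for each of 54 genes, among 2917 Schizosaccharomyces pombe probe sets with 1 gene (2899 genes): 11 rec, 7 mcp, 8 mde, 18 meu and 10 spo. The name does not guarantee a meiotic role. mcp60 encodes the mitochondrial chaperonin Hsp60, and spo14 (stl1), spo20 (sec14) and rec14 (ski8) also serve vegetative cells. 3 members have another name in the current RefSeq gene table: mcp5 is num1, meu8 is atd3, and the gene called mde1 on the array (SPAC16E8.05c) is unnamed there, where mde1 is another gene. The members lay on chromosomes I, II and III in numbers of 23, 23 and 8, and no pair of them were next to each other among the protein-coding genes.

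Total RNA of 12 samples was measured, each on 1 Affymetrix Yeast Genome 2.0 array. The strains were slm9D (slm9 replaced by ura4), hip1D (hip1 replaced by ura4) and a wild type (WT). All 3 were h- leu1-32 ura4-D18, so that the mutants carry a ura4 gene that WT lacks. Slm9 and Hip1 are subunits of HIRA, a complex that places histones on DNA outside replication. Cells in log phase in rich YES medium at 32 °C were heated to 40 °C for 1 h, given 25 mM hydrogen peroxide (H2O2) for 1 h, heated for 1 h and then given H2O2 for 1 h, or left unstressed. The series' description speaks of growth in quadruplicate and of aliquots, and no label says that any arrays came from separate cultures. Each strain and condition has 1 array, so the p-values below rest only on the spread between these arrays. In comparisons over all conditions and in stress responses averaged over strains, that spread includes any differences between strains in their response. Within 1 condition and between responses, it is the spread between the slm9D and hip1D arrays, which may be technical.

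Fission yeast enters meiosis when nutrients run out and cells of opposite mating type have fused. The meiotic genes are then switched on in waves, early genes for chromosome pairing and recombination first and the middle genes controlled by the forkhead factor Mei4 later, and spores are built inside the mother cell by new membranes and walls. In growing cells these genes are kept low by silencing at the chromatin level and by a system built around the RNA-binding protein Mmi1 that destroys meiotic transcripts that escape. A haploid h- culture in rich medium, as here, is outside the conditions in which meiosis starts.

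The values are log2 signals, in which 1 unit is a 2-fold change, and levels are compared only within a probe set. As a background level, the 95th percentile of 2601 named probe sets that belong to no S. pombe gene lay at 3.55 to 3.80 on the 8 mutant arrays and at 3.73 to 4.03 on the 4 WT arrays. Members above it numbered 50 to 52 on the mutant arrays and 42 to 51 on the WT arrays, and the lowest number was that of WT after H2O2. This WT array also had the lowest median over all S. pombe probe sets, 9.36 against 9.46 to 9.57 on the other arrays. 41 members were above background on all 12 arrays, and rec7 and rec27 on none. The deleted slm9 read 5.14 ± 0.22 in slm9D and 9.59 ± 0.31 in WT (SD, n = 4 arrays each). The hip1 probe set read 8.39 ± 0.07 in hip1D and 9.51 ± 0.22 in WT (SD, n = 4 each), far above background in the deletion strain, so it checks that label weakly. The array's genes of M (h-) and P (h+) cells were all above background on all arrays and do not settle the mating type.

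**Figure D1:**
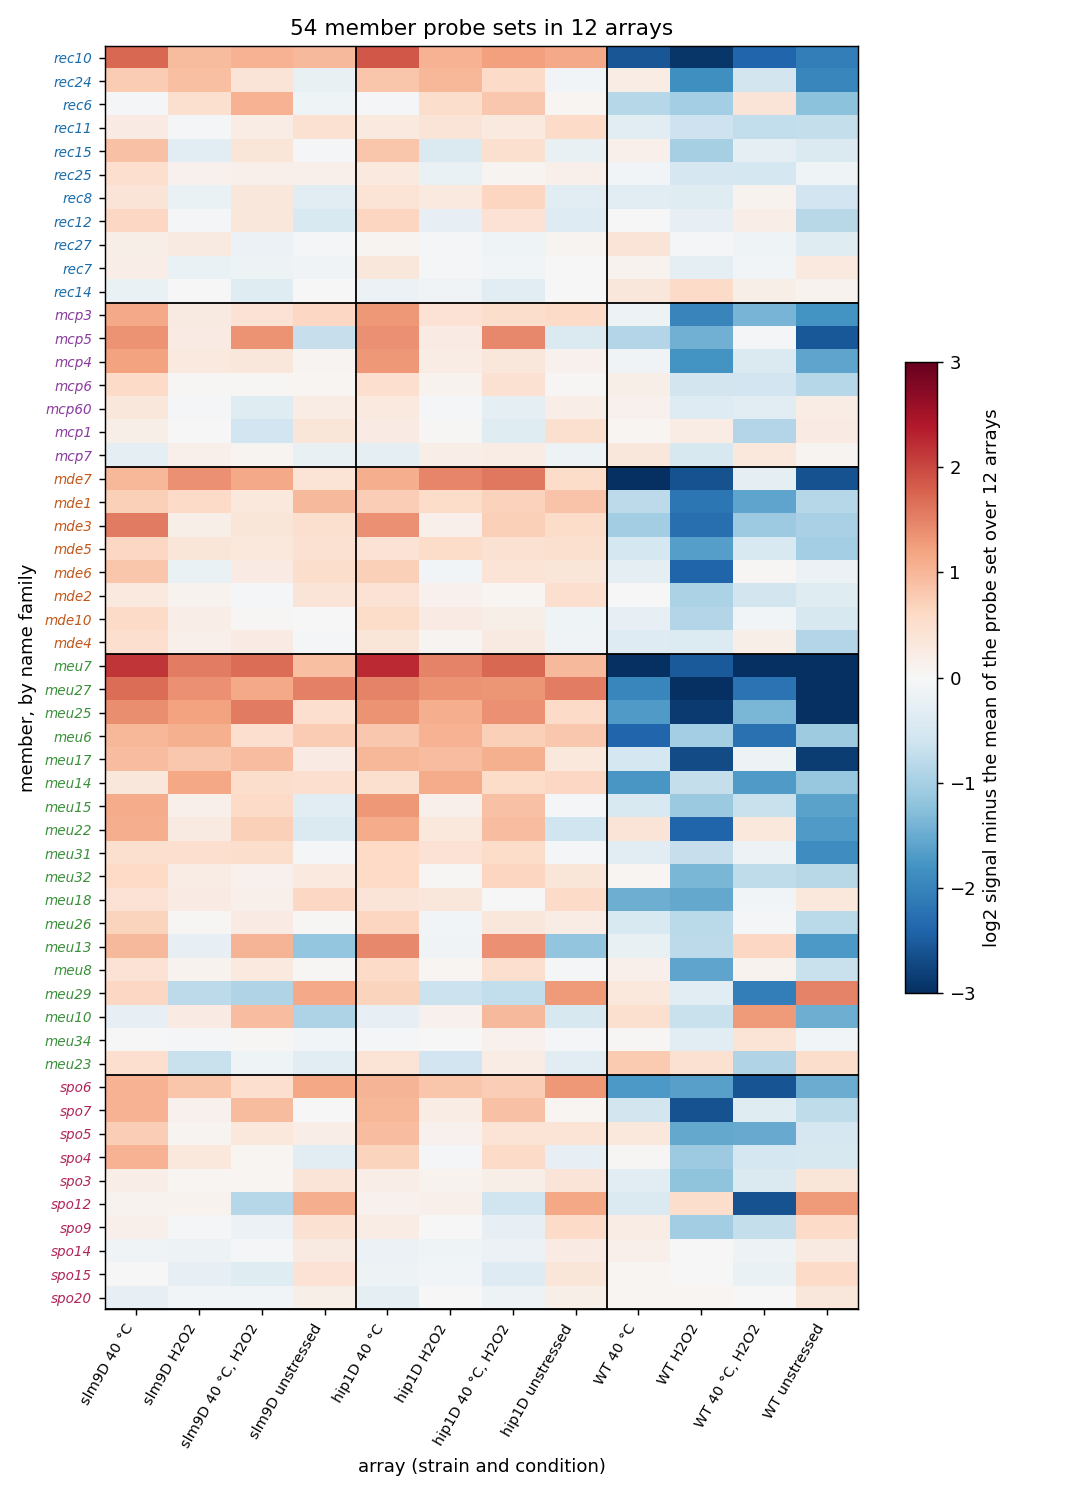
Log2 signal of the 54 members (rows, by name family) on the 12 arrays (columns), minus the mean of each probe set over the 12 arrays, with colours ending at 3 log2 units either way. The 8 mutant columns are redder than the 4 WT columns for most members, with rec14 the reverse.

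Mutants were first compared with WT over all conditions. Of the 54 members, 39 were higher in the mutants and 2 were lower at an adjusted p under 0.05 (limma, 8 mutant against 4 WT arrays), and 25 of the 39 were at least 2-fold higher. As shares, 72.2% of the members were called higher and 3.7% lower, where 25.3% of all tested probe sets were called higher and 28.7% lower. The members' median log2 difference was 0.79, beside a median of -0.02 over all 2917. In 18 members every mutant array lay above every WT array, which held for 7.64% of all tested probe sets, and in 1 (rec14) every mutant array lay below every WT array, which held for 3.77%. In bulk cultures, more cells that express a gene and more RNA per cell cannot be told apart. The authors' normalization bears on the size of this. Quantile normalization was repeated on the deposited values of the 2917 S. pombe probe sets with 1 gene, called S. pombe probe sets alone below. Then 27 members were called higher and 10 lower and the members' median was 0.33, with 26 of the 39 still called higher.

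By family, the members called higher numbered 8 of 8 mde, 14 of 18 meu, 8 of 11 rec, 4 of 7 mcp and 5 of 10 spo. Their median differences were 1.22 for mde, 1.11 for meu, 0.68 for mcp, 0.53 for spo and 0.46 for rec. With S. pombe probe sets normalized alone the medians were 0.72, 0.64, 0.17 and 0.17 in that order for mde, meu, mcp and spo, and the rec median turned to -0.35. The members called higher were then 7 mde, 10 meu, 3 rec (rec6, rec10 and rec24), 4 mcp and 3 spo, and those called lower were 2 meu, 5 rec (rec8, rec14, rec15, rec25 and rec27), 2 mcp and 1 spo. The families were not tested against each other.

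**Figure D2:**
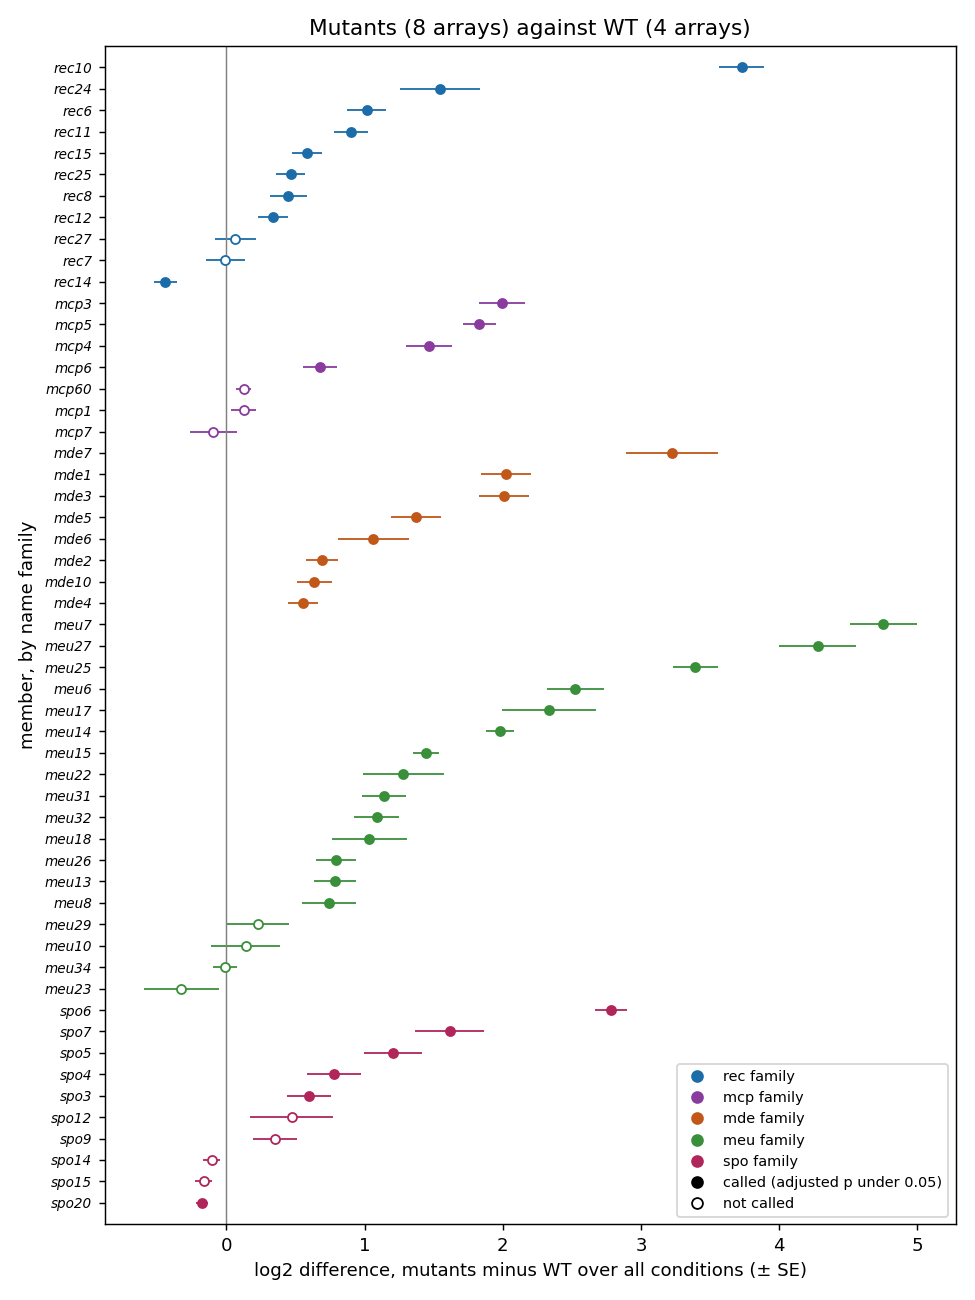
Log2 difference of the mutants minus WT over all conditions for each of the 54 members, with bars of 1 SE. Filled points passed the test. The highest difference is that of meu7, 4.75, and the lowest called one that of rec14, -0.44.

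Among the recombination genes, rec10 had the largest difference. Its product builds the linear elements, the fission yeast relatives of the synaptonemal complex. rec10 read 9.12 to 10.03 (median 9.26) on the 8 mutant arrays, against 5.60, 5.25, 5.79 and 6.10 in WT at 40 °C, after H2O2, after both and unstressed, the order in which WT values are given throughout. The groups did not overlap, and the difference of 3.73 ± 0.16 (SE, adjusted p = 6.27e-07) is 13.3-fold. The other linear element genes among the members were rec25 and rec27. rec25 was 0.46 ± 0.10 higher, a call that became lower (-0.50) when S. pombe probe sets were normalized alone. rec27 was below background on every array, which gives no fold.

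The genes for making the DNA breaks of meiosis were called at smaller sizes. rec24, which encodes a break formation factor, read 5.89 to 7.12 (median 6.78) in the mutants, against 6.33, 4.29, 5.58 and 4.17 in WT (difference 1.54 ± 0.29, adjusted p = 0.00179). The heated WT array was above the unstressed mutants, so the groups overlapped. rec6, for a partner of the break enzyme, read 8.67 to 9.84 (median 9.07) in the mutants, against 7.94, 7.77, 9.18 and 7.57 in WT (difference 1.02 ± 0.14, adjusted p = 0.000362), and here the WT array after both stresses overlapped the mutant range. rec12, the gene of the Spo11-type enzyme itself, was 0.33 ± 0.11 higher, and rec15, for another break formation factor, 0.58 ± 0.11 higher. Both signs turned with S. pombe probe sets normalized alone, and rec15 was then called lower (-0.35). rec7 was below background on every array.

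Of the meiotic cohesin genes, rec11 was 0.90 ± 0.12 higher, with every mutant array above every WT array, and rec8 was 0.45 ± 0.13 higher. Both changed sign when S. pombe probe sets were normalized alone, rec8 being then called lower at -0.56. rec14 went the other way. It encodes a partner of Rec12 that is also the Ski8 subunit of the cytoplasmic Ski complex of mRNA decay, and it read 8.79 to 9.18 (median 9.01) in the mutants, against 9.49, 9.73, 9.33 and 9.28 in WT. All 8 mutant values lay below all 4 WT values (difference -0.44 ± 0.08, SE, adjusted p = 0.00184).

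In the mcp family the called members were mcp3, mcp5, mcp4 and mcp6. mcp3 read 5.73 to 6.76 (median 6.01) in the mutants, against 5.32, 3.47, 4.07 and 3.67 in WT, where the arrays after H2O2 alone and unstressed were below background (difference 1.99 ± 0.16, adjusted p = 1.88e-05). mcp5, for the cortical anchor of dynein that pulls the nucleus back and forth in meiotic prophase, read 7.82 to 9.97 (median 9.31) in the mutants, against 7.65, 7.08, 8.48 and 5.97 in WT (difference 1.83 ± 0.12, adjusted p = 4.78e-06). mcp4 read 7.88 to 9.10 (median 8.10) in the mutants, against 7.69, 5.99, 7.35 and 6.21 in WT (difference 1.47 ± 0.17, adjusted p = 0.00012). mcp3 and mcp4 did not overlap between mutants and WT, while mcp5 did, its WT signal after both stresses being above that of the unstressed mutants. mcp6 (hrs1), whose product sits at the spindle pole body during the same nuclear movement, was 0.68 ± 0.12 higher, and was called lower (-0.33) with S. pombe probe sets normalized alone. mcp7, which encodes the Mnd1 recombination factor, mcp1 and mcp60 did not pass the test, with differences of -0.10, 0.12 and 0.13. Under that normalization mcp7 was called lower (-0.40) and mcp60 higher (0.17).

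All 8 mde members were higher in the mutants, and mde7, mde1, mde3 and mde5 did not overlap with WT. mde7, for an RNA-binding protein, read 8.08 to 9.27 (median 8.80) in the mutants, against 4.62, 5.07, 7.38 and 5.07 in WT (difference 3.22 ± 0.33, adjusted p = 6.87e-05). mde1 read 6.28 to 6.94 (median 6.67) in the mutants, against 5.17, 3.79, 4.39 and 5.12 in WT (difference 2.02 ± 0.18, adjusted p = 3.23e-05). mde3, for a kinase of the Ime2 type, read 5.77 to 7.19 (median 6.13) in the mutants, against 4.58, 3.36, 4.52 and 4.66 in WT (difference 2.01 ± 0.18, adjusted p = 3.5e-05). For both mde1 and mde3 the WT array after H2O2 was below background. The others were higher by 1.37 for mde5, of the alpha-amylase family, 1.06 for mde6, 0.69 for mde2, needed for DNA breaks, 0.64 for mde10, a metalloprotease gene of spore formation, and 0.56 for mde4, a monopolin subunit gene. The mde2 call was lost with S. pombe probe sets normalized alone (0.04, adjusted p = 0.763).

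The 3 members with the largest meu differences were also 3 of the 4 largest of all. meu7, of the alpha-amylase family, read 11.27 to 12.61 (median 11.96) in the mutants, against 6.74, 7.85, 7.04 and 7.14 in WT, a difference of 4.75 ± 0.24 or 27-fold (adjusted p = 1.4e-06). meu27 read 8.64 to 9.17 (median 8.92) in the mutants, against 5.54, 3.43, 5.27 and 4.32 in WT, with the WT array after H2O2 below background (difference 4.28 ± 0.28, adjusted p = 5.08e-06). meu25 read 9.40 to 10.45 (median 10.17) in the mutants, against 7.19, 6.03, 7.52 and 5.79 in WT (difference 3.39 ± 0.16, adjusted p = 9.54e-07). None of the 3 overlapped between mutants and WT. meu6 (2.52), meu17 (2.33, a glucoamylase-type gene), meu14 (1.98, for a protein at the leading edge of the forespore membrane), meu15 (1.44) and meu31 (1.14) did not overlap either. meu22, meu32, meu18, meu26, meu13 and meu8 were higher by 1.28, 1.09, 1.03, 0.79, 0.79 and 0.74. meu26 was below background on every WT array and on 3 of 8 mutant arrays, which gives at least 1.08-fold, and its sign turned with S. pombe probe sets normalized alone. The calls of meu22 (0.52, adjusted p = 0.0632), meu32 (0.08, adjusted p = 0.626) and meu13 (0.12, adjusted p = 0.662) were lost under that normalization. meu10, for a spore wall protein, meu23, meu29 and meu34 did not pass the test, but meu10 (-0.85) and meu23 (-0.83) were called lower with S. pombe probe sets normalized alone.

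The spo family was split. spo6, for the regulatory subunit of the meiotic Spo4 kinase, read 7.62 to 8.43 (median 8.06) in the mutants, against 5.40, 5.50, 4.54 and 5.64 in WT (difference 2.78 ± 0.12, adjusted p = 4.52e-07). spo7, for a protein that starts the forespore membrane, read 8.40 to 9.41 (median 8.93) in the mutants, against 7.83, 5.76, 8.01 and 7.61 in WT (difference 1.61 ± 0.25, adjusted p = 0.000624). Neither overlapped between mutants and WT. spo5, for a meiotic RNA-binding protein, read 4.87 to 5.72 (median 5.15) in the mutants, against 5.10, 3.25, 3.28 and 4.29 in WT, of which 2 were below background (difference 1.21 ± 0.21, adjusted p = 0.0012), and its groups overlapped. The spo5 call was lost with S. pombe probe sets normalized alone (0.28, adjusted p = 0.259). spo4, the kinase gene, was 0.78 higher, with a sign that turned under the same normalization, and spo3, for a forespore membrane protein, was 0.60 higher.

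The remaining spo members were not called higher. spo20, for a lipid transfer protein of the Sec14 type, read 11.25 to 11.70 (median 11.44) in the mutants, against 11.57, 11.58, 11.53 and 11.87 in WT, so the groups overlapped. It was called lower at -0.18 ± 0.04 (SE, adjusted p = 0.00726), a call that was lost without either mutant strain (adjusted p = 0.089 without slm9D and 0.0742 without hip1D) and with S. pombe probe sets normalized alone. spo14, of protein export from the endoplasmic reticulum, spo15, of the spindle pole body, spo9 (erg20), of isoprenoid synthesis, and spo12 did not pass the test, with differences of -0.11, -0.16, 0.35 and 0.47. spo15 was called lower (-0.19) with S. pombe probe sets normalized alone.

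**Figure D3:**
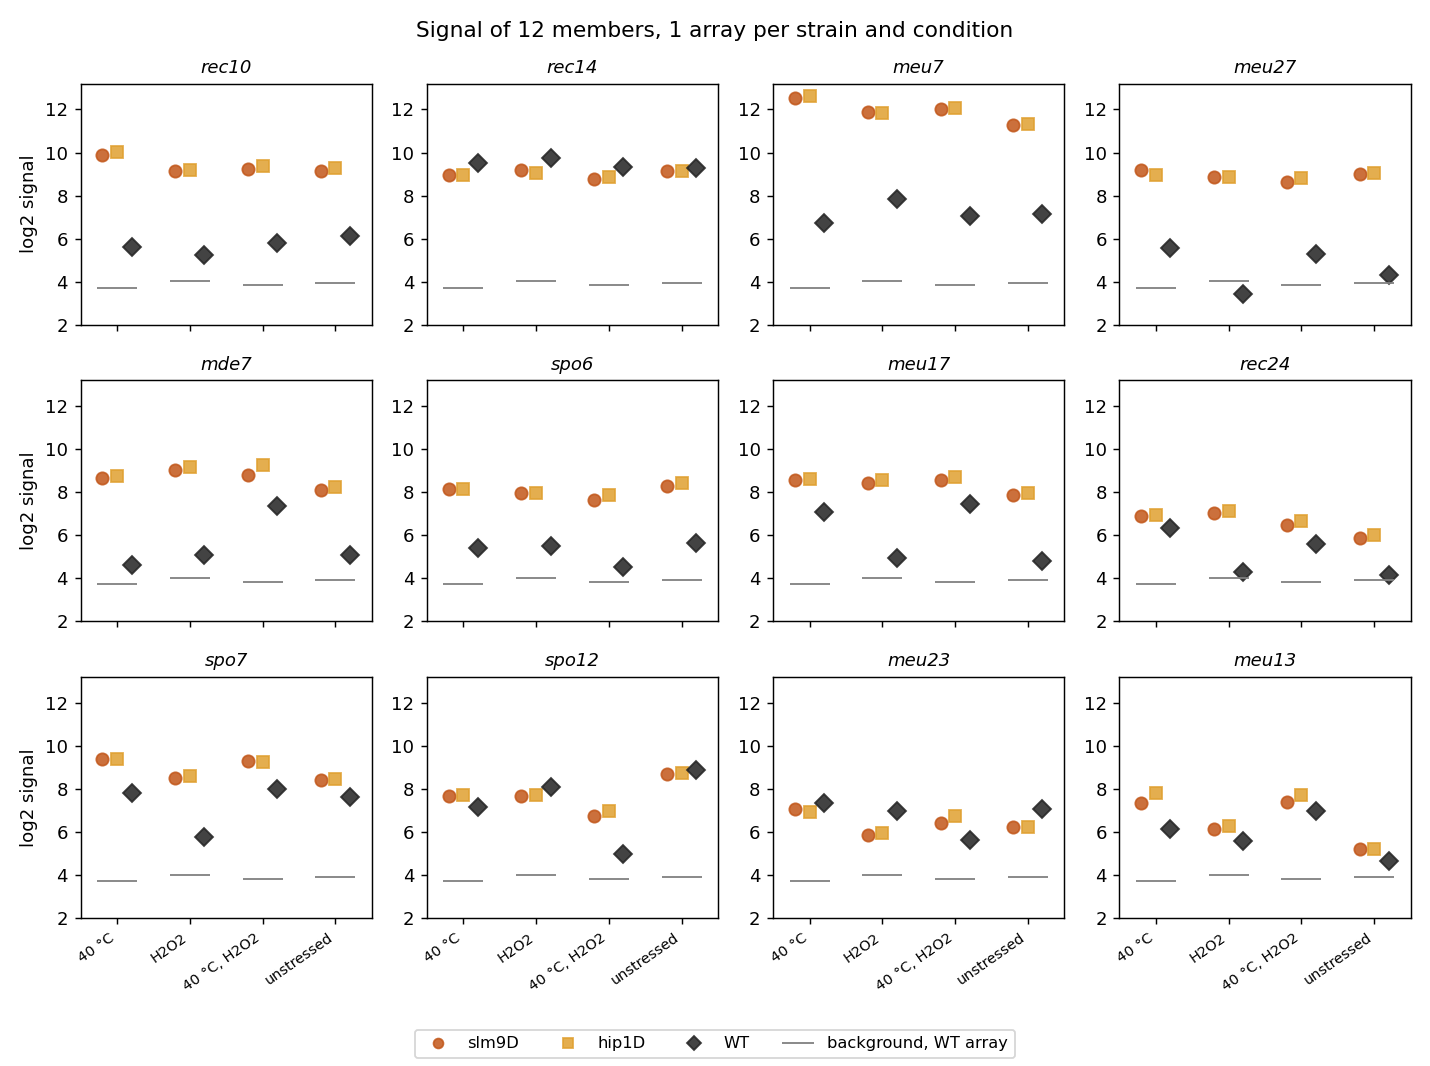
Log2 signal of 12 members (panels) in slm9D, hip1D and WT under 4 conditions, 1 array per point, with the background level of each WT array as a grey dash. rec10, meu7 and spo6 show mutants above WT in every condition, while mde7 and meu17 show a WT signal closer to that of the mutants after both stresses than in unstressed cells, and still below it.

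The deletions were compared with each other next. None of the 54 members passed the test of slm9D minus hip1D in limma (4 arrays each), and 0 had an unadjusted p under 0.05. Over all 2917 probe sets, 0.0343% were higher and 0.0686% lower. The members' differences ran from -0.23 to 0.15, and a difference of that size is not excluded by a p that misses the threshold. Within a condition, the gap between the slm9D and hip1D arrays had a median of 0.19 over the members when the widest condition of each was taken, and reached 0.51 at most. WT varied more than the mutants over the 4 conditions: 39 of the 54 members (72.2%) had a wider range in WT (4 arrays) than in the mutants (8 arrays), with median ranges of 0.82 in the mutants and 1.25 in WT. Over all probe sets the share was 63.6%, with median ranges of 0.67 in the mutants and 0.79 in WT.

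Mutants were then compared with WT within each condition, with the 2 mutant arrays against 1 WT array and the WT array assumed to vary as the mutants do. At 40 °C 41 members were higher and 6 lower, where 29.3% and 34.1% of all probe sets were. After H2O2 it was 42 higher and 6 lower, where 38% and 37.2% of all probe sets were. After both stresses it was 39 and 2, against 29.5% and 29.6% of all, and in unstressed cells 35 and 4, against 26% and 34.6% of all. The members' median differences were 0.73, 1.20, 0.70 and 0.80 in these conditions, and -0.03, -0.01, -0.01 and -0.04 over all probe sets. With S. pombe probe sets normalized alone, the members called higher and lower were 28 and 9 at 40 °C, 32 and 14 after H2O2, 25 and 4 after both, and 25 and 6 unstressed.

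The members' higher median was present with and without stress, but not in every family. The spo median difference was 0.01 in unstressed cells, against 0.52 at 40 °C, 1.13 after H2O2 and 0.70 after both stresses. The other families had medians of 0.38 (rec) to 1.17 (meu) in unstressed cells. With S. pombe probe sets normalized alone, the unstressed medians were -0.14 for rec, -0.04 for spo, 0.16 for mcp, 0.30 for meu and 0.65 for mde. The rec median was then also negative at 40 °C (-0.11), after H2O2 (-0.60) and after both (-0.21). Under that normalization the spo median was -0.15, 0.61 and 0.34 in these 3 conditions. 29 of the 54 members were called higher in each of the 4 conditions, where 13% of all probe sets were, and 0 members were called lower in each, where 13.1% were. The 29 were rec6, rec10, rec11 and rec24, mcp3, mcp4 and mcp5, all mde members but mde4, 12 meu members and spo5, spo6 and spo7. Of these, rec11, rec24, mde2, meu13, meu22, meu32 and spo5 changed sign in at least 1 condition when S. pombe probe sets were normalized alone. 6 members were higher in no condition: rec7, rec14, rec27, spo14, spo15 and spo20. 7 members were called higher in some conditions and lower in others: mcp1, mcp7, meu10, meu23, meu29, meu34 and spo12.

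For probe sets below background in WT, only a lower bound on the fold can be given, with the background level in place of the WT signal. In unstressed cells mcp3 was at least 4.38-fold higher in the mutants (mean log2 6.06 in mutants, 3.67 in WT) and meu10 at least 1.3-fold, the sign of meu10 turning with S. pombe probe sets normalized alone. After H2O2, meu27 was at least 28.3-fold higher (8.85 in mutants, 3.43 in WT), mde1 at least 5.65-fold, meu22 at least 5.37-fold, mcp3 at least 3.44-fold, mde3 at least 3.36-fold, meu32 at least 2.58-fold and spo5 at least 1.82-fold. spo5 was at least 2.49-fold higher after both stresses. All of these bounds hold for the authors' normalization only. With S. pombe probe sets normalized alone, meu32 was not called higher after H2O2, while meu27, mde1, meu22, mcp3, mde3 and spo5 still were. Most of these bounds come from the WT array after H2O2, the one with the fewest members above background, and there is no other WT array of that condition. Without the arrays of H2O2 alone, the comparison over all conditions called 39 members higher and 3 lower.

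The stress responses were described next. At 40 °C against unstressed cells, averaged over the 3 strains, 17 members rose and 4 fell, where 22.7% of all probe sets rose and 25.7% fell. After H2O2 5 rose and 10 fell, where 15.8% and 29.2% of all did, and after both stresses 14 rose and 9 fell, where 23.8% and 33.5% of all did. More spo members fell than rose: 1 rose and 4 fell at 40 °C, 0 rose and 5 fell after H2O2, and 0 rose and 6 fell after both. No rec member fell in any of the 3, and 4 rose at 40 °C and 4 after both, though with S. pombe probe sets normalized alone rec11 was called lower at 40 °C (-0.66) and after both (-0.43), and rec25 likewise (-0.48 and -0.39), with 1 rec member then rising at 40 °C and 2 after both. These counts depend on which strains enter. Without the WT arrays, 40 members passed in heated cells, 37 in H2O2 and 40 with both stresses. Without slm9D these were 11, 4 and 20, and without hip1D 9, 5 and 18. With S. pombe probe sets normalized alone, 13 rose and 12 fell in heated cells, 9 rose and 8 fell in H2O2, and 17 rose and 13 fell with both stresses.

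Heat raised meu13 and mcp5 in all 3 strains. meu13, for the Hop2 factor that helps strand exchange between homologues, read 7.34, 7.81 and 6.16 at 40 °C in slm9D, hip1D and WT, against 5.21, 5.19 and 4.64 unstressed (response 2.09 ± 0.20, SE, adjusted p = 5.66e-05). mcp5 read 9.85, 9.88 and 7.65 at 40 °C, against 7.82, 8.09 and 5.97 unstressed (response 1.83 ± 0.16, adjusted p = 2.49e-05). meu22, of the amino acid transporter family, read 7.25, 7.26 and 6.54 at 40 °C, against 5.73, 5.56 and 4.45 unstressed (response 1.77 ± 0.39, adjusted p = 0.00515). In these 3 genes each heated array lay above the unstressed array of its own strain.

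The 4 members that fell at 40 °C came from the spo family, but with S. pombe probe sets normalized alone the 12 that fell were 6 spo members and rec11, rec25, mde1, mde2, meu14 and meu29. spo12, related to a budding yeast regulator of mitotic exit, read 7.69, 7.71 and 7.15 at 40 °C in slm9D, hip1D and WT, against 8.68, 8.74 and 8.87 unstressed (response -1.25 ± 0.40, adjusted p = 0.0285). spo15 read 9.47, 9.31 and 9.52 at 40 °C, against 9.90, 9.82 and 10.04 unstressed (response -0.49 ± 0.08, adjusted p = 0.00135), and spo20 11.27, 11.25 and 11.57, against 11.69, 11.70 and 11.87 (response -0.39 ± 0.06, adjusted p = 0.00059). All 3 strains went down in each. The spo12 call was lost without either mutant (adjusted p = 0.107 without slm9D and 0.0863 without hip1D), and that of spo15 without hip1D (adjusted p = 0.0546).

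After H2O2 alone the largest rises among the members were moderate. meu13 read 6.13, 6.26 and 5.58 in slm9D, hip1D and WT after H2O2 (response 0.97 ± 0.20, adjusted p = 0.00435), mcp5 8.76, 8.76 and 7.08 (response 0.91 ± 0.16, adjusted p = 0.00168) and meu31 8.24, 8.16 and 7.05, against 7.71, 7.71 and 5.87 unstressed (response 0.73 ± 0.21, adjusted p = 0.0207). meu29 fell the most and read 7.71, 7.85 and 8.18 after H2O2, against 9.65, 9.78 and 9.98 unstressed (response -1.89 ± 0.30, adjusted p = 0.00101). mde6, of the muskelin family, read 7.43, 7.56 and 5.23 after H2O2, against 8.17, 8.01 and 7.45 unstressed (response -1.13 ± 0.34, adjusted p = 0.0235), and spo9 read 8.19, 8.23 and 7.19, against 8.69, 8.81 and 8.81 (response -0.90 ± 0.21, adjusted p = 0.00784). For mde6 and spo9 the lowest array was WT. The calls of meu13, meu31 and mde6 were each lost without slm9D and without hip1D, at adjusted p of 0.0518 to 0.0974.

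After both stresses meu13 and mcp5 were again the members with the largest rises, by 2.36 ± 0.20 and 2.14 ± 0.16 (adjusted p = 1.89e-05 and 9.04e-06). They read 7.40, 7.74 and 7.00 and 9.86, 9.97 and 8.48 in slm9D, hip1D and WT. meu10 read 5.93, 5.97 and 6.30 after both stresses, against 4.09, 4.53 and 3.54 unstressed (response 2.02 ± 0.33, adjusted p = 0.000727), where the unstressed WT array was below background. meu29 read 7.59, 7.77 and 6.42 after both stresses (response -2.54 ± 0.30, adjusted p = 9.79e-05), spo12 6.73, 6.98 and 4.96 (response -2.54 ± 0.40, adjusted p = 0.000537) and mcp1 8.26, 8.47 and 7.97, against 9.20, 9.32 and 9.10 unstressed (response -0.98 ± 0.12, adjusted p = 0.000151). In all 3 the stressed arrays lay below the unstressed ones, and for meu29 and spo12 the WT array was the lowest by more than 1 log2 unit.

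Cells heated before H2O2 were set against cells given H2O2 alone, which asks what the earlier heating adds. 12 members were higher and 5 lower, where 18% of all probe sets were higher and 17.8% lower. The largest were meu13 (1.39 ± 0.20, adjusted p = 0.00145), meu22 (1.25 ± 0.39, adjusted p = 0.0336) and spo7 (1.24 ± 0.33, adjusted p = 0.0176) among the higher ones and spo12 (-1.62 ± 0.40, adjusted p = 0.0133), meu14 (-0.73 ± 0.14, adjusted p = 0.00452) and mcp1 (-0.69 ± 0.12, adjusted p = 0.00332) among the lower ones. meu22 read 6.88, 7.09 and 6.47 after both stresses in slm9D, hip1D and WT, against 6.44, 6.47 and 3.76 after H2O2 alone. spo7 read 9.32, 9.26 and 8.01 after both, against 8.51, 8.59 and 5.76 after H2O2 alone. meu14 read 7.75, 7.76 and 5.52 after both, against 8.37, 8.33 and 6.51, and mcp1 read 8.83, 8.88 and 9.07 after H2O2 alone. spo12 read 6.73, 6.98 and 4.96 after both, against 7.69, 7.73 and 8.10 after H2O2 alone. The gap was widest in WT for meu22, spo7, spo12, meu14 and mcp1, but not for meu13. Without the WT arrays 29 members passed, without slm9D 2 and without hip1D 5. Of these 6 genes, meu22, spo7 and meu14 lost the call without either mutant, spo12 and mcp1 lost it without slm9D, and meu13 kept it.

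**Figure D4:**
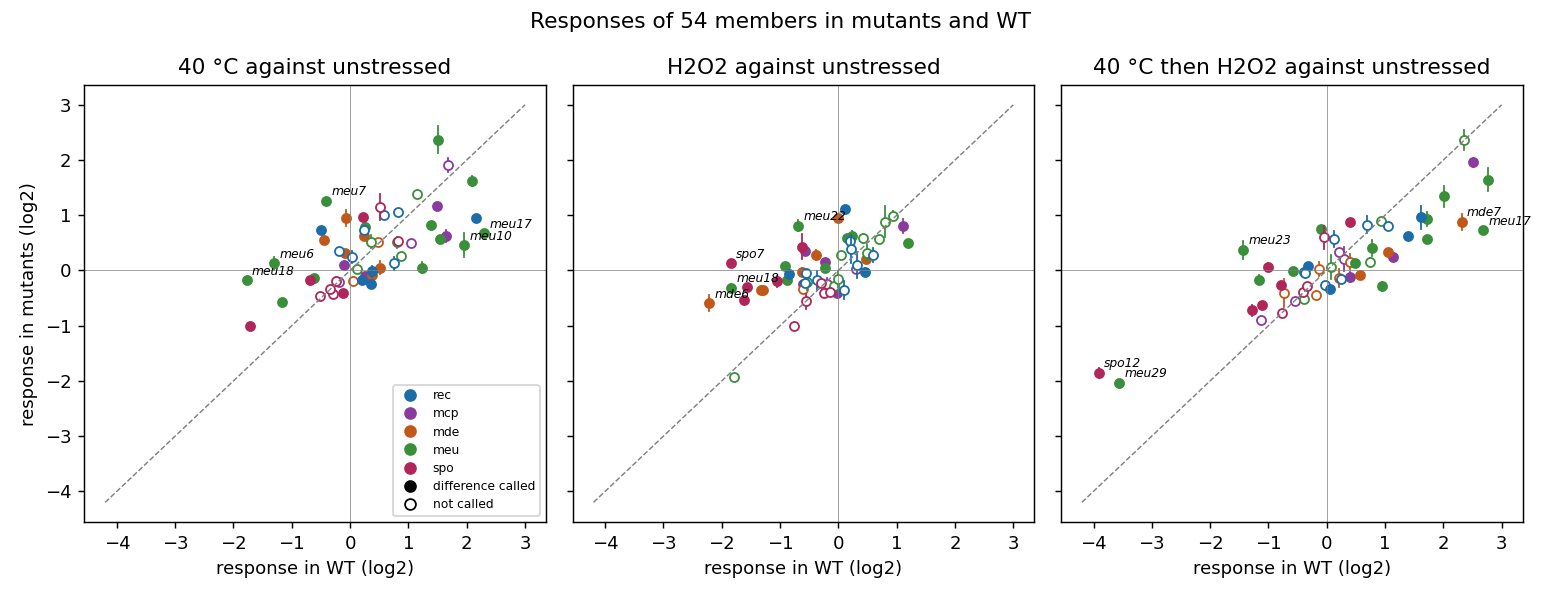
Response of each of the 54 members to 40 °C, to H2O2 and to both (panels) in WT (x axis) and in the mutants (y axis, mean of slm9D and hip1D, with a line joining the 2), in log2 units against unstressed cells of the same strain. Filled points passed the test of the difference between mutants and WT, and the dashed line marks equal responses. After both stresses spo12 and meu29 sit above the line, with WT responses of -3.91 and -3.56.

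The responses of mutants and WT were compared directly. In the 40 °C response 16 members were higher in the mutants and 16 lower, where 22.7% and 18% of all probe sets were. In the H2O2 response 23 were higher and 5 lower, where 31% and 16.3% of all were, and in the response to both 12 were higher and 17 lower, where 26.8% and 19.2% of all were. With S. pombe probe sets normalized alone the counts were 20 and 10, 19 and 10, and 14 and 14. Each WT response rests on 2 arrays, so an error in the unstressed WT array enters all 3 comparisons.

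At 40 °C, meu7 responded by 1.25 in slm9D and 1.28 in hip1D, against -0.41 in WT (difference 1.67 ± 0.10, adjusted p = 1.01e-10). meu18 read 9.66, 9.61 and 7.76 at 40 °C in slm9D, hip1D and WT, against 9.83, 9.79 and 9.53 unstressed, and meu6 read 8.46, 8.27 and 5.07, against 8.21, 8.26 and 6.38. Both were lower in heated WT and near level in the mutants, giving differences of 1.59 ± 0.11 for meu18 (adjusted p = 2.22e-09) and 1.44 ± 0.15 for meu6 (adjusted p = 5.93e-07). meu17, meu10 and rec24 went the other way, with a larger increase in WT. meu17 responded by 0.69 in slm9D and 0.67 in hip1D, against 2.30 in WT (difference -1.62 ± 0.12, adjusted p = 8.54e-09). meu10 responded by 0.69 in slm9D and 0.24 in hip1D, against 1.96 in WT (difference -1.50 ± 0.25, adjusted p = 0.000103), and rec24 by 0.99 in slm9D and 0.92 in hip1D, against 2.16 in WT (difference -1.21 ± 0.17, adjusted p = 1.69e-05). In unstressed WT, meu10 was below and rec24 just above the background level of 3.93.

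After H2O2, spo7 responded by 0.11 in slm9D and 0.15 in hip1D, against -1.85 in WT (difference 1.98 ± 0.11, adjusted p = 4.25e-10). mde6 responded by -0.74 in slm9D and -0.45 in hip1D, against -2.22 in WT (difference 1.62 ± 0.15, adjusted p = 7.4e-08), and meu18 by -0.37 in slm9D and -0.25 in hip1D, against -1.84 in WT (difference 1.53 ± 0.11, adjusted p = 4.7e-09). In these 3 genes the WT signal was more than 1 log2 unit under that of unstressed WT. The differences in the other direction were smaller: -0.69 ± 0.13 for meu31, -0.49 ± 0.11 for rec14 and -0.38 ± 0.11 for mcp1 (adjusted p = 0.000219, 0.0014 and 0.00879). rec14 responded by 0.04 in slm9D and -0.10 in hip1D, against 0.46 in WT, and mcp1 by -0.38 in slm9D and -0.44 in hip1D, against -0.03 in WT. The meu31 call was lost with S. pombe probe sets normalized alone (-0.33, adjusted p = 0.075). Members at least 2-fold lower after H2O2 numbered 1 in slm9D, 2 in hip1D and 9 in WT, and over all probe sets the shares were 5.18%, 4.15% and 10.1%.

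After both stresses, spo12 responded by -1.95 in slm9D and -1.76 in hip1D, against -3.91 in WT (difference 2.05 ± 0.14, adjusted p = 9.99e-10). meu23 responded by 0.21 in slm9D and 0.54 in hip1D, against -1.44 in WT (difference 1.81 ± 0.18, adjusted p = 2.15e-07), and its level in WT was above that of the mutants in the other 3 conditions. meu29 responded by -2.05 in slm9D and -2.02 in hip1D, against -3.56 in WT (difference 1.52 ± 0.11, adjusted p = 5e-09). On the other side, meu17 responded by 0.70 in slm9D and 0.76 in hip1D, against 2.68 in WT (difference -1.96 ± 0.12, adjusted p = 6.06e-10), mde7 by 0.74 in slm9D and 1.02 in hip1D, against 2.31 in WT (difference -1.43 ± 0.15, adjusted p = 3.7e-07) and meu27 by -0.37 in slm9D and -0.21 in hip1D, against 0.95 in WT (difference -1.24 ± 0.15, adjusted p = 1.94e-06). In these 3 genes the WT increase brought WT closer to the mutants, which were higher to begin with.

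The unstressed mutants were set beside stressed WT as levels, with no test. Of the 13 members at least 2-fold higher in heated than in unstressed WT, 8 had a higher signal in both unstressed mutants than in heated WT: mcp3, mcp4, mcp5, meu15, meu17, meu25, meu27 and meu31. This is 61.5%, and of the 168 probe sets that increased as much in heated WT the share was 17.9%. After H2O2 alone it was 2 of 2 members, mcp5 and meu31, and 16.3% of 49 probe sets. After both stresses it was 6 of 13 members (46.2%), namely mcp4, mde7, meu17, meu25, meu31 and rec24, and 10.5% of 210 probe sets. The unstressed mutant arrays also enter the comparison of mutants with WT, so this repeats part of it in another form.

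Genes of the same or related pathways under other names were counted from lists chosen with earlier results known. No list is limited to genes used only in meiosis. Their counts stand beside the 25.3% of all probe sets called higher and 28.7% called lower over all conditions. Of 14 meiotic regulators, 7 were higher in the mutants and 1 was lower, with a median of 0.64, but 4 and 3 with a median of 0.08 when S. pombe probe sets were normalized alone. cuf2, for a meiotic transcription factor, read 6.39 to 7.26 (median 6.84) in the mutants, against 4.25, 3.26, 4.30 and 4.13 in WT (difference 2.86 ± 0.16). mei4, the gene of the middle-meiosis forkhead factor, read 5.17 to 6.34 (median 5.65) in the mutants, against 3.64, 3.59, 4.40 and 3.88 in WT (difference 1.84 ± 0.14), and atf21, for a bZIP factor, 5.24 to 6.47 (median 5.80), against 3.88, 2.81, 3.80 and 3.76 (difference 2.26 ± 0.21). None of the 3 overlapped between mutants and WT. Only 1 of 4 WT arrays was above background for mei4 (after both stresses) and for atf21 (at 40 °C), and 3 of 4 for cuf2 (not after H2O2), so the sizes of these differences rest in part on WT signals at background. The lower one, chosen after its values were seen, was ste11, for the master regulator of mating and entry into meiosis (-1.03 ± 0.17).

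Of 17 recombination genes with other names 9 were higher and 0 lower, with a median of 0.36, where 25.3% and 28.7% of all probe sets were, and 6 higher and 1 lower with a median of 0.09 with S. pombe probe sets normalized alone. The 3 with the smallest p were rhp55 (0.74 ± 0.09) and sfr1 (0.76 ± 0.17), both for helpers of strand exchange, and eme1 (1.11 ± 0.23), for a subunit of a nuclease that cuts recombination intermediates. Of 19 spore formation genes with other names 13 were higher and 1 lower, with a median of 0.80, and 12 and 3 with a median of 0.55 under that normalization. spn6, for a sporulation septin, read 8.11 to 8.64 (median 8.23) in the mutants, against 5.55, 3.70, 5.87 and 4.41 in WT, where the array after H2O2 was below background (difference 3.42 ± 0.36). isp3, for the surface protein of spores, was 2.23 ± 0.17 higher. The list is wider than its name and also counts, among others, dni1. This gene, for a membrane protein of cell fusion, a step before spore formation, was 1.86 ± 0.14 higher.

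Of 7 probe sets for the machinery that removes meiotic transcripts, 0 were higher and 2 lower over all conditions, where 28.7% of all were lower. The lower ones were pla1, for a poly(A) polymerase, at -0.37 ± 0.06 and pab2, for a nuclear poly(A)-binding protein, at -0.26 ± 0.07, with a list median of -0.14. In unstressed cells alone 5 of the 7 were lower and 0 higher (median -0.26), where 34.6% of all probe sets were lower. The stressed conditions did not repeat this. At 40 °C 1 was higher and 2 lower, after H2O2 2 and 2, and after both stresses 1 and 2. Their medians were -0.11, -0.04 and -0.01, where 34.1%, 37.2% and 29.6% of all probe sets were lower. Over all conditions, with S. pombe probe sets normalized alone 5 were lower, and with arrays shifted to equal medians of the outside probe sets 2 were higher and 2 lower. mmi1 itself did not pass the test (0.32 ± 0.14). Of the other HIRA subunit genes, hip3 was 0.77 ± 0.12 higher in the mutants and hip4 did not pass the test (0.07 ± 0.08). Among the mating type genes, 6 of 9 M cell probe sets and 2 of 4 P cell probe sets were higher in the mutants, and 1 M cell probe set (mfm2, -1.82 ± 0.23) was lower, where 25.3% of all probe sets were higher and 28.7% lower. With S. pombe probe sets normalized alone 4 M cell probe sets were higher and 3 lower, and 1 P cell probe set was higher. The part of these genes in the results was not tested.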

How the data were processed

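Biotinylated cRNA from total RNA of 12 samples was hybridised to 1-colour arrays, per the labels. The deposited values are probe set intensity on a linear scale, from 2.88 to 20293, and the submitters' processing notes name RMA and Affymetrix Expression Console 1.1 as the authors' tools. RMA as a method corrects background, equalises the distributions of the arrays and summarises probes, so differences in total RNA are lost and low signals are compressed. All 12 deposited intensity columns were used after taking log2. Of 10928 probe sets, 2917 had exactly 1 S. pombe gene (2914 through the gene ID of the RefSeq table and 3 through the symbol). The 5224 probe sets with no gene name were left out, also from the repeated normalization. No coordinates are given, because the sources name no build for the array.

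Tests were made with limma 3.58.1 in R 4.3.3, with an intensity trend. P-values were adjusted by Benjamini and Hochberg's method over the 2917, and a call needs an adjusted p under 0.05. A model of strain plus condition, with 6 residual degrees of freedom, gave the stress responses and the strain differences over all conditions. A model of 8 means, with 4 residual degrees of freedom, gave mutants against WT in 1 condition. Adding slm9D against hip1D to it left 3 and gave the response differences. Both of these models take the spread of a lone WT array from that of the mutants. All were run on simulated data with independent noise of the same size on every array of a gene, WT included. Outside the genes given a planted change, these data held no strain or condition effects. They therefore cannot show how the models do where WT and mutants vary or respond differently. The members, lists and tests were chosen with earlier results of these data known. Values on every array, or their range and median over the 8 mutant arrays, are given for up to 3 called members per family and direction in mutants against WT, and for up to 3 per direction in each stress response and response difference. Other lists are given by counts, with up to 3 genes by smallest p. mmi1, ste11, hip4 and mfm2, and the members given with a difference alone, stand outside this rule. The number of arrays limits the precision. The alternatives left out dim probe sets, strains or conditions, changed the normalization, or dropped the trend.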

Additional observations from a re-analysis of the deposited data

Results flagged for a closer look

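The test of the difference in response between the mutants and WT was passed by 18 named gene and stress combinations, given here as mutants minus WT in log2 units (limma, adjusted over 2917 probe sets). For the response to 40 °C these were 1.67 for meu7, 1.59 for meu18 and 1.44 for meu6, and -1.62 for meu17, -1.50 for meu10 and -1.21 for rec24. For H2O2 they were 1.98 for spo7, 1.62 for mde6 and 1.53 for meu18, and -0.69 for meu31, -0.49 for rec14 and -0.38 for mcp1. For 40 °C then H2O2 they were 2.05 for spo12, 1.81 for meu23 and 1.52 for meu29, and -1.96 for meu17, -1.43 for mde7 and -1.24 for meu27. Every one of these rests on 1 WT array per condition, and in each the slm9D and hip1D responses lay on the same side of the WT response. That adds no support, because the test takes its spread from these 2 strains and the largest called differences were listed.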

How the results depend on the processing

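Counts of members called in each stress response depended on the strains used. Leaving out 1 strain at a time gave 9 to 40 members at 40 °C (main count 21), 4 to 37 after H2O2 (15), 18 to 40 after both (23) and 2 to 29 for both against H2O2 alone (17), with the highest count each time without the WT arrays. No other count of members called moved by over 1.5 times under any alternative run, though the split into higher and lower moved with quantile normalization of the S. pombe probe sets by themselves, as given beside the results. For 59 named combinations of member and comparison, the alternatives gave 406 tested values that kept their direction and their side of the threshold, 36 values with no test that kept their direction, and 22 that kept the direction and lost the call, 19 of these without slm9D or hip1D and 3 with S. pombe probe sets normalized alone. 0 of these changed direction, but 8 other members called over all conditions did so with S. pombe probe sets normalized alone: mcp6, meu26, rec8, rec11, rec12, rec15, rec25 and spo4. The causes were not tested. The filter on dim signal left 2906 probe sets and 50 members. Without slm9D or hip1D, comparisons within a condition and of responses have no residual degrees of freedom and give values with no test. The labels give no replicate numbers to use as a block, and the comparisons over all conditions hold strain and condition as terms. Signals near background, such as rec7, rec27, meu26, rec8 and spo4, limit what can be read from those members.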
